A study of Bos taurus with 30 samples.

Results

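IL1RL1 and the gene annotated as mast cell protease 2 were 2 of the 27607 bovine genes counted in peripheral white blood cells (PWBCs, the nucleated cells of the buffy coat). They were followed as genes linked to mast cells and basophils. Both had been picked from earlier results of these counts because they were lower in jugular blood stored for 24 h than in jugular blood processed at 1 h. Values of that contrast are therefore given as a description with no test for either gene.

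The blood came from 5 crossbred Angus x Simmental heifers (females that have not calved), called subjects A to E, all of which were estrus-synchronized and had expressed estrus at sampling. From each heifer 1 tube of tail blood (coccygeal vein) and 5 tubes of neck blood (jugular vein) were drawn, all with EDTA against clotting. The groups were coccygeal blood processed at 1 h (5 libraries), jugular blood processed at 1 h (5 libraries), jugular blood stored at 4 °C for 3, 6 or 8 h (15 libraries, here 3-8 h) and jugular blood stored at 4 °C for 24 h (5 libraries). No group was unstored, and all animals shared the hormone treatment, so that it could not enter a comparison. The heifer and the exact hour of the 3-8 h libraries are not named for single columns of counts. They were not inferred from the order or the levels of the columns, so that the 3-8 h fits had no subject block. Because 3 of these 15 libraries came from each heifer, p-values of the 3-8 h comparisons rest on libraries that are not independent.

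IL1RL1, also called ST2, is the receptor of the alarmin cytokine IL-33, which damaged barrier cells release. It signals with the accessory protein IL1RAP through MYD88 and is carried by mast cells, basophils, type 2 innate lymphoid cells, Th2 cells and some regulatory T cells. Mast cell proteases are serine proteases stored in secretory granules, from the same family as the granzymes of cytotoxic lymphocytes and cathepsin G of neutrophils. Mature mast cells live in tissues, whereas basophils circulate as a rare class of white blood cell.

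In ARS-UCD1.2, IL1RL1 (ENSBTAG00000018571) is a protein-coding gene on the forward strand of chromosome 11, from 7127282 to 7165290, with a transcript length of 2286 bases. IL18R1, the receptor of the related cytokine IL-18, starts at 7165278 on the same strand, so that the 2 genes share 13 bases. Mast cell protease 2 (ENSBTAG00000050871) is a protein-coding gene on the forward strand of chromosome 21, from 34727438 to 34730647, with a transcript length of 1220 bases. Granzyme B (GZMB) starts 9664 bases beyond its end on the same strand. Reads shared between near-identical copies in such a family of neighbouring protease genes could have been split or lost, which makes the level of mast cell protease 2 uncertain in that respect.

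The libraries held between 12412619 and 19492274 counts. The floor of detection was set at 3 counts, worth 0.154 to 0.242 CPM (counts scaled to a library of 1e+06). Of all genes, 14018 had a CPM above 1 in at least 5 of the 30 libraries and were tested, both members among them. IL1RL1 exceeded 1 CPM in 30 of 30 libraries. Mast cell protease 2 did so in 19 of 30, namely 3 of 5 coccygeal libraries, 4 of 5 jugular libraries at 1 h, 11 of 15 at 3-8 h and 1 of 5 at 24 h, so that it was kept for its level in the earlier groups.

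IL1RL1 was a low but constantly detected transcript. In the coccygeal libraries subjects A to E had 2.72, 3.16, 2.39, 1.97 and 3.74 CPM, from 33 to 67 counts. In the jugular libraries at 1 h they had 2.77, 4.98, 2.8, 2.21 and 4.43 CPM, from 38 to 92 counts. Subjects B and E were the highest and subject D the lowest in both veins. Across the 15 libraries of 3-8 h, IL1RL1 ranged from 1.49 to 4.78 CPM with a median of 3.04. At 24 h subjects A to E had 1.16, 2.31, 1.36, 1.2 and 2.60 CPM, from 19 to 42 counts. Subjects B and E remained the highest at 24 h, and their 24 h levels overlapped the earlier groups, whereas the levels of A, C and D lay below the lowest 1 h library of either vein.

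The group means of IL1RL1, from high to low, were 3.44 ± 1.2 CPM for the jugular vein at 1 h (SD, n = 5), 3.07 ± 0.95 at 3-8 h (SD, n = 15), 2.79 ± 0.683 for the coccygeal vein at 1 h (SD, n = 5) and 1.73 ± 0.678 at 24 h (SD, n = 5). The first 3 of these means lay within 1 SD of each other. The 24 h group stood lowest, although 6 of the 15 libraries of 3-8 h, 2 of 5 coccygeal libraries and 1 of 5 jugular libraries at 1 h were at or below the highest 24 h library.

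Mast cell protease 2 differed among heifers far more than IL1RL1 did. The coccygeal libraries of subjects A to E had 4.80, 0.277, 0.137, 1.97 and 7.92 CPM, from 83, 5, 2, 33 and 142 counts. The jugular libraries at 1 h had 6.36, 1.73, 0.261, 1.34 and 15.1 CPM, from 124, 32, 4, 23 and 188 counts. Subject E was the highest, A the next and C the lowest in both veins, and the highest jugular library was 58.1 times the lowest, against 2.26 times for IL1RL1. The coccygeal count of subject C lay under the floor of 3 counts.

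At 3-8 h mast cell protease 2 ranged from 0.203 to 12.2 CPM with a median of 1.77, from 3 to 210 counts. At 24 h subjects A to E had 0.365, 0.384, 0.260, 0.568 and 1.58 CPM, from 6, 7, 4, 9 and 20 counts. The 24 h group had a narrower range than the earlier ones, with 6.07 times between its highest and lowest library, and subject E stood apart above the other 4. It overlapped every other group, because 2 of 5 libraries of each vein at 1 h and 5 of 15 at 3-8 h were no higher than its highest library.

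The group means of mast cell protease 2, from high to low, were 4.97 ± 6.15 CPM for the jugular vein at 1 h (SD, n = 5), 3.51 ± 3.85 at 3-8 h (SD, n = 15), 3.02 ± 3.32 for the coccygeal vein at 1 h (SD, n = 5) and 0.631 ± 0.541 at 24 h (SD, n = 5). The first 3 means differed by less than their SDs. The order of the groups was that of IL1RL1.

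**Figure D1:**
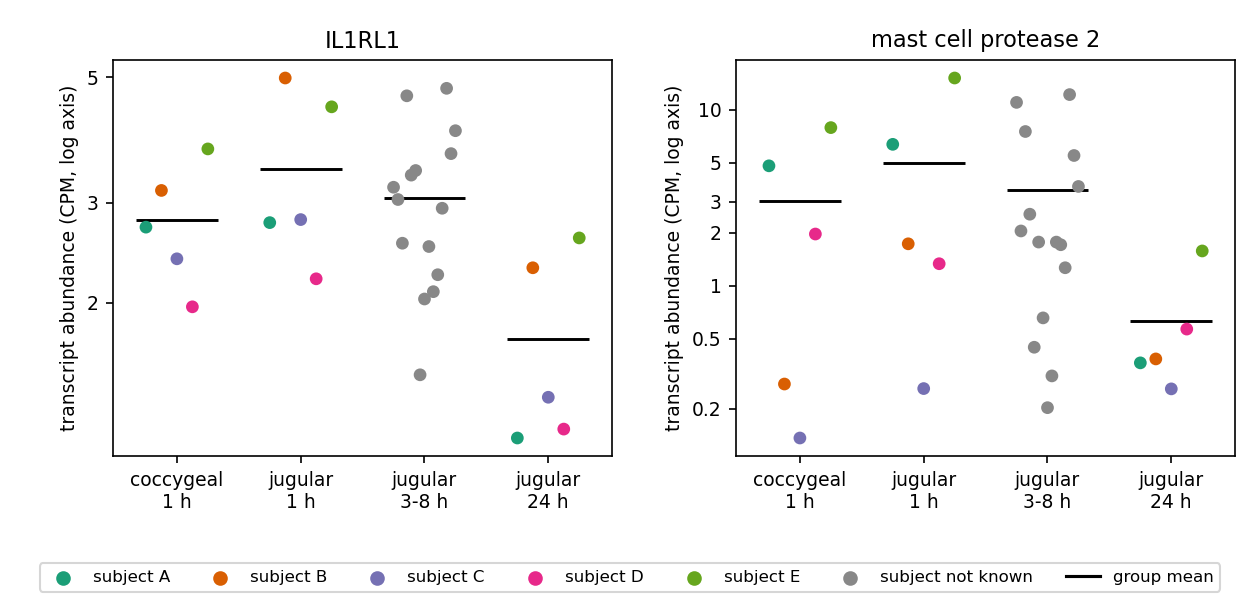
Transcript abundance of IL1RL1 and mast cell protease 2 in CPM (log axis) for each of the 30 libraries by group, with the subject in colour where it is known and the group mean as a line. The IL1RL1 libraries at 24 h lie between 1.16 and 2.60 CPM, and those of mast cell protease 2 spread from 0.137 to 15.1 CPM over all groups with the 24 h libraries between 0.260 and 1.58 CPM.

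Per kilobase of transcript, the scale on which genes can be set side by side, mast cell protease 2 had a mean of 4.07 ± 5.04 FPKM (CPM per kilobase) in jugular blood at 1 h and IL1RL1 1.5 ± 0.524 (SD, n = 5 each). At 24 h the means were 0.517 ± 0.443 and 0.755 ± 0.297 FPKM. KIT, the stem cell factor receptor of mast cells and progenitors, was at 4.15 ± 1.46 FPKM at 1 h and 3.21 ± 1.12 at 24 h. GATA2, a transcription factor of mast cells and basophils, was at 0.974 ± 0.911 FPKM at 1 h and 0.185 ± 0.102 at 24 h (SD, n = 5 each).

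Within heifers, the share of the 1 h level of IL1RL1 that was measured at 24 h ran from 0.417 to 0.588. The interval of each share was wider than that range, so that likeness among the animals cannot be judged. The ratio of the 24 h to the 1 h level was 0.417 in subject A (95% interval 0.234 to 0.716), 0.463 in B (0.314 to 0.674), 0.486 in C (0.274 to 0.838), 0.544 in D (0.296 to 0.967) and 0.588 in E (0.370 to 0.921). These intervals are exact binomial ones and cover counting error only. They are no test of the change, on which the gene was chosen. The mean ratio was 0.50. On the log2 scale the mean change was -1.01 with an SD of 0.19 (n = 5).

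For mast cell protease 2 the ratio was 0.0574 in subject A (0.0207 to 0.129), 0.222 in B (0.0827 to 0.512), 0.996 in C (0.186 to 5.35), 0.425 in D (0.173 to 0.954) and 0.104 in E (0.0622 to 0.166). Subjects A and E, with the most counts at 1 h, had the lowest ratios. The 1 h level is the denominator of the ratio, so that a link between them is partly built in. Subject C had 4 counts at each time, and no difference of up to several-fold was detectable there at this depth. The mean change was -2.16 with an SD of 1.63 on the log2 scale (n = 5), against an SD of 0.19 for IL1RL1. Both genes were chosen on this contrast.

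**Figure D2:**
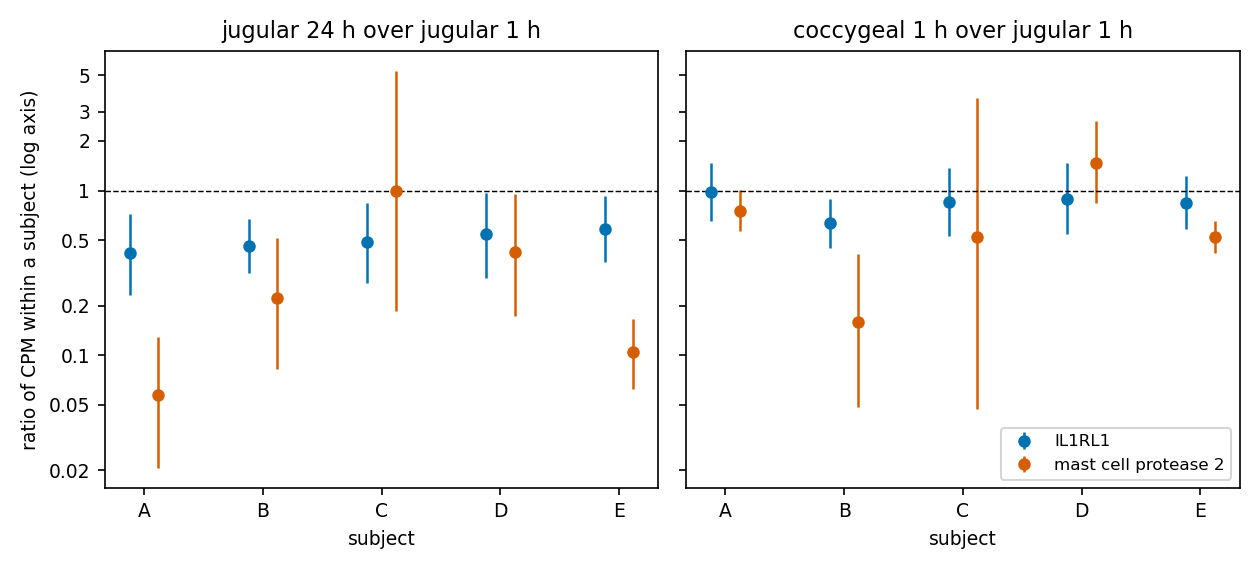
Ratio of CPM within each subject (log axis) for IL1RL1 and mast cell protease 2, 24 h over 1 h in jugular blood on the left and coccygeal over jugular blood at 1 h on the right, with exact 95% binomial intervals of the counts as bars. The 5 ratios of IL1RL1 at 24 h run from 0.417 to 0.588, and those of mast cell protease 2 from 0.0574 to 0.996.

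The fit across all genes with the subject as a block (edgeR) gave a log2 fold change from 1 h to 24 h of -1.01 for IL1RL1 and -2.70 for mast cell protease 2. A gene was called where the false discovery rate (FDR) was under 0.05 in both edgeR's quasi-likelihood test and DESeq2's Wald test and the absolute log2 fold change in edgeR was above 0.5. Of all genes tested 2.58% were called at 24 h, 1.45% higher and 1.13% lower, and both members were among the 158 lower genes, as their choice fixed. Without the subject as a block, 30 genes in place of 361 were called. Among the 158, mast cell protease 2 had the largest fall and IL1RL1 the rank 14, beside a median log2 fold change of -0.64. This order describes the contrast that chose both genes. The fold change of mast cell protease 2 rests on 4 to 20 counts per library at 24 h. At the limit of 0.5 the nearest named genes were ARHGAP31 just inside at -0.50138 and RBPJ just outside at -0.49883. In bulk PWBCs, fewer cells of a type and less RNA per cell cannot be told apart for either gene.

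Against 3-8 h the 24 h libraries had a log2 fold change of -0.83 for IL1RL1 and -2.51 for mast cell protease 2. These values share the 24 h libraries with the contrast that chose the genes and have no test here. Without the library of subject E the value of mast cell protease 2 was -3.13.

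The remaining comparisons asked whether vein or a shorter delay changed transcript abundance, and neither member was called in any of them. The share of genes called was 0% in all 3, 0 of 14018. At an unadjusted p under 0.05, edgeR had 278 genes for the vein and 174 and 182 for 3-8 h against jugular and coccygeal blood at 1 h, and DESeq2 had 101, 234 and 220.

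Between veins at 1 h, IL1RL1 was lower in coccygeal blood in 5 of 5 heifers, with ratios from 0.634 in subject B to 0.982 in subject A, and the interval of the counts excluded 1 in subject B only. The log2 fold change was -0.28 in edgeR (unadjusted p = 0.0964, FDR = 1.00), and DESeq2 gave -0.27 with an SE of 0.26. Mast cell protease 2 was lower in coccygeal blood in 4 of 5 heifers, with ratios of 0.755, 0.160, 0.524 and 0.523 in A, B, C and E and 1.47 in D. Its log2 fold change was -0.67 in edgeR (unadjusted p = 0.0547, FDR = 1.00), and DESeq2 gave -0.73 with an SE of 0.34. Neither difference passed the test. The jugular libraries at 1 h were also part of the contrast that chose the genes, so that these directions are not independent of the choice.

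From 1 h to 3-8 h in jugular blood, the log2 fold change of IL1RL1 was -0.16 in edgeR (FDR = 1.00) with an SE of 0.24 in DESeq2. It turned to 0.015 without the 1 h library of subject B, the highest of its group. The log2 fold change of mast cell protease 2 was -0.48 in edgeR (FDR = 1.00) with an SE of 0.83 in DESeq2, and it turned to 0.52 without the 1 h library of subject E. With that SE, a difference of the size seen between veins would not have been detectable for mast cell protease 2. Here too the jugular libraries at 1 h had entered the choice of the genes.

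Jugular blood at 3-8 h was also set against coccygeal blood at 1 h, a comparison that used no library of the contrast behind the choice, but in which vein and storage time changed together. IL1RL1 was higher by 0.13 on the log2 scale in edgeR (FDR = 1.00) with an SE of 0.23 in DESeq2. Mast cell protease 2 was higher by 0.21 (FDR = 1.00) with an SE of 0.85, and its value turned to -0.09 without the coccygeal library of subject B or of subject C. Neither member passed the test. Both comparisons of 3-8 h share the same 15 libraries.

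The other genes described came from lists of markers and pathway members. Of 80 listed symbols, 26 could be joined to an identifier, and 13 of these 26 were named only in tables of genes that the study had itself found changed at 24 h, so that their direction is not independent evidence. These 13 are GATA2, CYSLTR2, GATA3, IL17RB, CCR4, IL7R, FOXP3, IL2RA, CD8A, CD14, TLR4, CCR2 and GZMB. From 1 h to 24 h, 10 of the 26 were called lower and 0 higher, beside 1.13% and 1.45% of all genes, with a median log2 fold change of -0.57 against 0.01 over all genes. Of the 13 genes named from a table not chosen by change, 1 was called lower, with a median of -0.23. From 3-8 h to 24 h, 1 of the 26 was called lower, CCR2, and 0 higher, beside 0.2% of all genes called, 0.143% higher and 0.0571% lower.

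Of the mast cell and basophil list, 3 of 11 genes had an identifier, and 1 of the 3 was called lower at 24 h, beside 1.13% of all genes. GATA2 and CYSLTR2 were named only from tables of genes changed at 24 h, so that their values are no independent evidence. KIT alone was named otherwise. The called gene was CYSLTR2, a receptor of cysteinyl leukotrienes, with a log2 fold change of -0.75 (edgeR FDR = 0.0259). GATA2 had -2.15 in edgeR (FDR = 0.00743) and was lower in 5 of 5 heifers, but it was not called because DESeq2's filter on low means gave it no adjusted p. KIT had -0.37 (edgeR FDR = 0.0150), under the limit on the fold change. The summed level of the 3 genes ranged from 17.2 to 35.4 CPM in jugular blood at 1 h and from 11.9 to 27.1 CPM at 24 h, and it was mostly KIT. None of the 26 listed genes was at 0 in any library, and the lowest count was 5. Defining markers such as FCER1A, MS4A2, HDC and CPA3 were not analysed here. The label of mast cells or basophils could be checked on GATA2, KIT and CYSLTR2 of this list. It could also be checked on IL5RA, GATA1 and CCR3 of the eosinophil list, which basophils share. At 24 h IL5RA was called lower and was lower in 5 of 5 heifers, whereas GATA1 and CCR3 had log2 fold changes of 0.03 and 0.16.

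In the IL-33 receptor pathway and IL-1 receptor family, 6 of 22 genes had an identifier, and 0 of 6 were called in either direction at 24 h, beside 2.58% of all genes. At that share, 0 of 6 is no result about the pathway. IL1RL1, chosen for its fall, had -1.01. All 6 had a log2 fold change below 0, with a median of -0.22. MYD88, the adaptor of the receptor family, had -0.23 (edgeR FDR = 0.12), and MAP3K7, a kinase downstream of it, had -0.04 (edgeR FDR = 0.716). IL18R1, the neighbour that overlaps IL1RL1, had -0.61 (edgeR FDR = 0.133, DESeq2 FDR = 0.0317). TNFAIP3, an inhibitor of NF-kappaB signalling, had -0.21, the cytokine IL1B -0.33 and the cytokine IL18 -0.15, none of them called. DESeq2 replaced outlying counts of IL1B in the 3-8 h comparisons and of neither member.

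Of the granule serine proteases, 2 of 12 had an identifier and 0 of 2 were called at 24 h, beside 2.58% of all genes. GZMB, a granzyme of cytotoxic cells, had a log2 fold change of -1.47 (edgeR FDR = 0.180) and was lower in 4 of 5 heifers. Subject D was the exception and went from 21.5 to 24.1 CPM, while its level of mast cell protease 2 went from 1.34 to 0.568 CPM. GZMM, another granzyme, had -0.24 (edgeR FDR = 0.367).

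Markers of other cells that carry IL1RL1 or share the buffy coat were called in part at 24 h. Of all genes tested, 1.13% were called lower and 1.45% higher in that comparison. All 4 genes of the Th2 and type 2 innate lymphoid list with an identifier, of 8 listed, were called lower: GATA3, the transcription factor of these cells, with -0.59, IL17RB, a receptor of IL-25, with -0.74, the chemokine receptor CCR4 with -0.71 and the IL-7 receptor IL7R with -0.90. Their summed level ranged from 259.5 to 479 CPM at 1 h and from 148 to 324 CPM at 24 h. All 4 were named from tables of genes changed at 24 h. The regulatory T cell genes FOXP3 and IL2RA, 2 of 2 listed, had -0.53 and -0.61 and were not called, with a summed level of 34.5 to 85.5 CPM at 1 h and 25.6 to 76.2 CPM at 24 h.

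For each of the next lists, the share of all genes called lower was 1.13%. Of the eosinophil list, 1 of 3 genes with an identifier, of 7 listed, was called lower, IL5RA, the IL-5 receptor that basophils also carry, with -0.56. GATA1, a transcription factor of eosinophils, basophils and mast cells, had 0.03 and CCR3, the eotaxin receptor of eosinophils and basophils, had 0.16, and the summed level was 37.8 to 77.5 CPM at 1 h and 35.0 to 76.8 CPM at 24 h. All 3 monocyte genes with an identifier, of 4 listed and each named only from tables of genes changed at 24 h, were called lower, CD14 with -0.62, TLR4 with -0.61 and CCR2 with -0.85, from a summed 125.8 to 200.1 CPM at 1 h to 76.3 to 116 CPM at 24 h. Of the NK and cytotoxic T list, 1 of 4 genes with an identifier, of 5 listed, was called lower, CD8A with -0.60, and the summed level was 151 to 238 CPM at 1 h and 89.6 to 217 CPM at 24 h. PRF1 had -0.32 and was not called. CD79A of B cells, 1 of 3 listed, had 0.18 and was not called, and its level went from 439 to 559 CPM at 1 h to 477 to 696 CPM at 24 h. No gene of the neutrophil list or of the platelet and erythroid list had an identifier. The part of these marker changes in the lower levels of IL1RL1 and mast cell protease 2 was not tested.

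**Figure D3:**
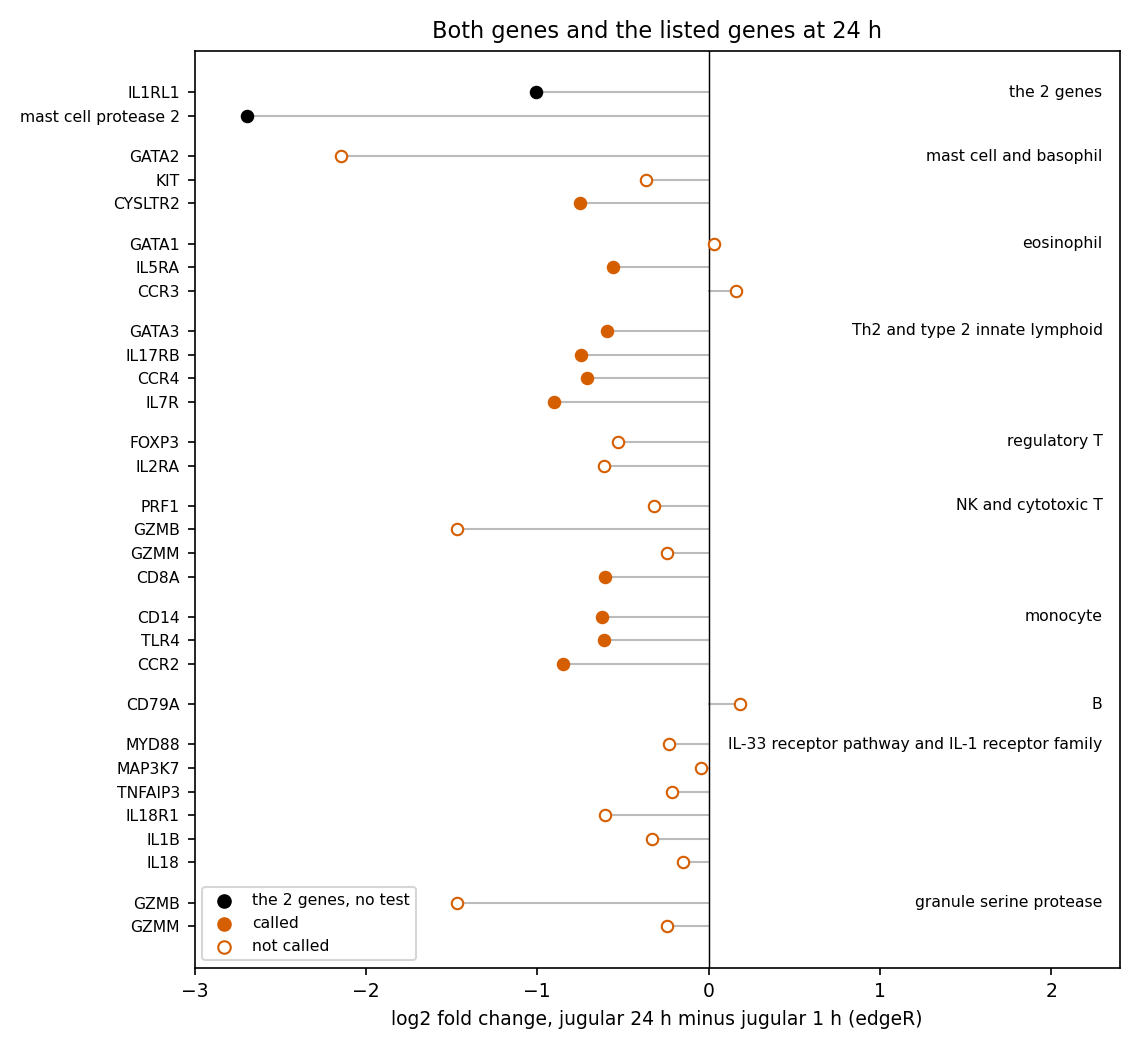
Log2 fold change from 1 h to 24 h in jugular blood (edgeR, 5 heifers per time) for both genes and the 26 listed genes, grouped by list, with GZMB and GZMM shown in both of their lists. Filled points were called, open points were not, and both members are in black without a test. Mast cell protease 2 lies at -2.70, GATA2 at -2.15, GZMB at -1.47 and IL1RL1 at -1.01, and the 6 genes of the IL-33 receptor pathway and IL-1 receptor family lie between -0.61 and -0.04.

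Likeness of pattern was measured as Pearson's r of log2(CPM + 0.5) across the 30 libraries after each group's mean was removed, so that the mean change at 24 h did not enter, while differences among heifers in that change did. The 30 libraries came from 5 heifers, and r therefore reflects mostly the differences among these animals, shared library depth included, and is given as a description. IL1RL1 and mast cell protease 2 had an r of 0.47 with each other, and mast cell protease 2 ranked 949 among the 14017 genes set against IL1RL1.

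The 5 named genes most like mast cell protease 2 were GATA2 (r = 0.88), EXO5, an exonuclease (r = 0.75), FFAR2, a receptor of short-chain fatty acids (r = 0.71), GZMB (r = 0.70) and HDHD3 (r = 0.68). GATA2 ranked 2 among 14017 genes, with 1 unnamed gene above it, and GZMB ranked 49. In jugular blood at 1 h, GATA2 was at 3.33, 1.14, 0.978, 1.68 and 7.57 CPM in subjects A to E, highest in E, next in A and lowest in C as for mast cell protease 2. In coccygeal blood GATA2 was at 3.07, 0.277, 1.03, 1.91 and 2.73 CPM, highest in A and lowest in B, an order that mast cell protease 2 did not share. The other 2 genes of the mast cell and basophil list were not close to mast cell protease 2, with an r of -0.19 for KIT and -0.23 for CYSLTR2. Of the eosinophil list, IL5RA had an r of 0.58 and ranked 281 among 14017 genes, GATA1 had 0.24 and CCR3 0.0022.

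The 5 named genes most like IL1RL1 were IL17RB (r = 0.79), ANG2, an angiogenin (r = 0.75), DUSP7, a phosphatase of MAP kinases (r = 0.74), TRPV2, a cation channel (r = 0.72), and SYNJ2, a phosphoinositide phosphatase (r = 0.71). IL17RB ranked 6 among 14017 genes, with 5 unnamed genes above it. For IL1RL1 the r with GATA2 was 0.26, with KIT 0.25 and with CYSLTR2 0.38. With FOXP3 it was 0.62, with IL5RA 0.59, with GATA1 0.57 and with IL7R 0.55, and of the NK and cytotoxic T list it was -0.69 with PRF1 and GZMM, -0.58 with CD8A and 0.28 with GZMB. Only 1739 of the 14018 genes tested had a name here, so that the nearest genes are mostly unnamed. Names came in part from tables of genes changed at 24 h, among them those of GATA2, GZMB and IL17RB.

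**Figure D4:**
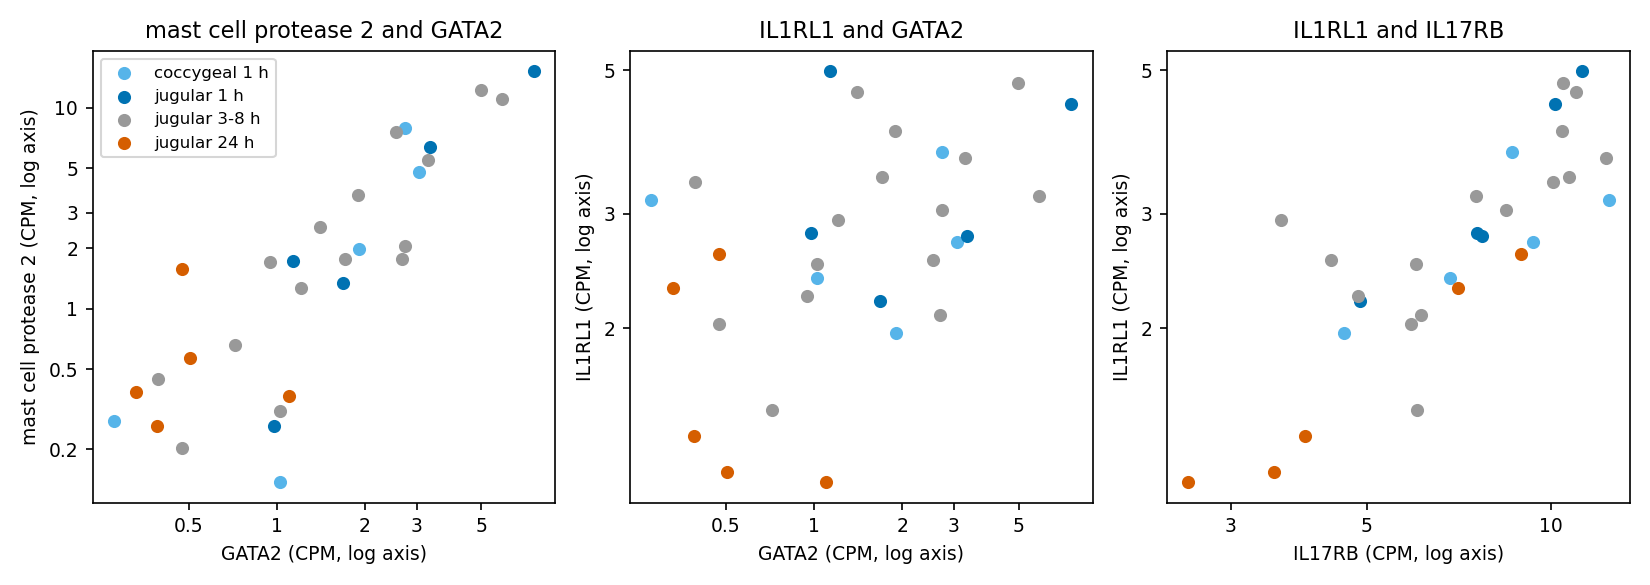
CPM of each of the 30 libraries on log axes, coloured by group: mast cell protease 2 against GATA2, IL1RL1 against GATA2, and IL1RL1 against IL17RB. Libraries with more GATA2 have more mast cell protease 2 (r = 0.88 with group means removed), while IL1RL1 runs along with IL17RB (r = 0.79) and little with GATA2 (r = 0.26).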

How the data were processed

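The authors trimmed adapters (cutadapt 2.8), aligned read pairs to ARS-UCD1.2 (HISAT2 2.2.0), filtered alignments (SAMtools 1.10), removed duplicates (biobambam2), counted fragments per Ensembl gene without strand (featureCounts, Subread 2.0.1) and deposited unnormalized counts of 27607 genes in 30 libraries. Group and subject of each column followed the study's supplementary code, and the 15 columns not assigned there were taken as 3-8 h.

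Counts were analysed with edgeR 4.0.16 (quasi-likelihood, scaled by library size) and DESeq2 1.42.0 in R 4.3.3, on genes with a CPM above 1 in at least 5 libraries. The vein and the 24 h against 1 h comparisons had the subject as a block, since the libraries came from the same heifers: the correlation of deviations from group means was 0.42 to 0.85 within subjects and -0.16 and -0.15 on average between subjects. No 2 libraries were identical or as close as sampling noise. CPM and FPKM were computed from the counts, with names, coordinates and lengths from the supplementary annotation. The steps were tested on simulated data. RNA integrity was not analysed here.

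Members and lists were chosen with earlier results of these data known. The genes named are both members, every listed gene with a name, and for each member the 5 named genes with the highest r. Alternatives were TMM scaling, no filter or a stricter one, each tool alone, fits that dropped the replicate block or one subject at a time.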

Additional observations from a re-analysis of the deposited data

Results flagged for a closer look

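Among the 5 jugular libraries of 24 h, mast cell protease 2 in subject E, at 1.58 CPM, stood apart from the other 4, which lay between 0.260 and 0.568 CPM: its gap to the next library was 0.766 of the range of the group. For both genes, 10 sets of 5 values were examined, and chance would flag about 1 in 20 such sets if they were independent and normally distributed. The sets came from the same heifers and were in part raw CPM, so that this rate is only a rough guide. Subject E also had the highest level of this gene at 1 h in both veins.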

How the results depend on the processing

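The log2 fold changes of both members kept their direction in all 54 values from TMM scaling, no filter, a stricter filter, each tool alone and no replicate block, and in the 3 comparisons where they were tested neither was called in any of these. Values with edgeR alone were those of the main fit, so that they could not differ. The 24 h comparisons used libraries that chose the genes, so that their direction is not independent of the choice. For 3-8 h against jugular blood at 1 h, the log2 fold change of mast cell protease 2 was -0.501 in DESeq2 and -0.481 in edgeR, on either side of the limit of 0.5. Without the replicate block, 30 genes in place of 361 were called at 24 h against 1 h. With DESeq2 alone, 68 genes in place of 28 were called at 24 h against 3-8 h. Each subject was left out in turn, but its libraries of 3-8 h, whose subject is not known, stayed in, so that the 3-8 h comparisons lost only its library of the other group. This gave 156 to 396 called genes at 24 h against 1 h and 15 to 34 at 24 h against 3-8 h, with 156 and 15 without subject A, 237 at 24 h against 1 h without subject B and 17 at 24 h against 3-8 h without the 24 h library of subject D, and 0 in the other 3 comparisons. The log2 fold change at 24 h against 1 h was then -1.08 to -0.95 for IL1RL1 and -3.0 to -2.29 for mast cell protease 2, and against 3-8 h it was -1.02 to -0.72 and -3.13 to -2.32. Between veins it was -0.34 to -0.17 and -0.95 to -0.46. For 3-8 h against jugular blood at 1 h it was -0.29 to 0.015 (reversed without the 1 h library of subject B) and -0.79 to 0.52 (reversed without that of subject E). For 3-8 h against coccygeal blood it was 0.03 to 0.26 and -0.09 to 0.95 (reversed without the coccygeal library of subject B or of subject C, at -0.089 and -0.093). The cause was not tested. Counts of mast cell protease 2 under 10 at 24 h in 4 of 5 libraries limit the precision of its fold changes, and intervals of counts cover counting error only.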
